A study of Homo sapiens with 60 samples.

Results

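Tumour surface antigens that antibodies have been raised against were followed in human EGFR-mutant non-small-cell lung cancer lines during treatment with osimertinib, a covalent EGFR inhibitor. The genes were taken by name from a list and not by a threshold on their values, although earlier results of these data were known when the list was made. In all, 7 genes of the 19712 in the deposited tables are described here: CEACAM1, CEACAM5, CEACAM6, CEACAM7, MSLN, FOLR1 and NECTIN4. The CEACAM genes encode adhesion molecules of the immunoglobulin family. CEACAM5, known as carcinoembryonic antigen, CEACAM6 and CEACAM7 are held to the outer membrane by a lipid (GPI) anchor, while CEACAM1 spans the membrane and has a signalling tail. Mesothelin (MSLN) and folate receptor alpha (FOLR1) are GPI-anchored as well. Mesothelin binds the mucin MUC16, and FOLR1 carries folates into the cell by endocytosis. NECTIN4 is a transmembrane adhesion molecule of epithelial junctions. All of these proteins are reached from outside the cell, and antibody-drug conjugates have been built against several of them.

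Bulk mRNA was sequenced from the established lines PC9, HCC827, H1975 and HCC2935. Each of the 4 lines had 5 arms with 3 biological replicates, giving 60 libraries. DMSO cells were kept without drug for 21 days and then given vehicle for 24 h. Acute cells received 500 nM osimertinib for 24 h. Drug-tolerant persisters (DTPs) received the same dose for 21 days, short washout cells spent a further 24 h without drug, and long washout cells were kept without drug until they proliferated exponentially again, which took 7 days in PC9, 4 days in HCC827, 3 days in H1975 and 10 days in HCC2935. The washout length therefore differed between lines, and the lines differ in more than their EGFR genotype. The labels name no clone, and whether the replicates were separate cultures beyond being called biological is not given, so the p-values measure the spread between these libraries.

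Total estimated counts were 17.7 M to 49.1 M per library. Of 9 lung and epithelial markers 8 were in the tables: keratin genes KRT7, KRT8, KRT18 and KRT19 were high in all 4 lines, whereas the surfactant gene SFTPB did not exceed 2.73 TPM in any library (TPM, transcript abundance scaled for length and library total). A list of 10 EGFR-MAPK target genes, which reads the action of the drug, had 7 to 10 members lower in acute cells of every line and none higher. Among all genes tested, 22.1% to 34.1% were lower and 20.2% to 34.4% higher there. For 16 of the 60 libraries the closest library of another arm correlated more strongly than did their own group on average, among them all 9 persister and washout libraries of HCC827. PC9 long washout replicate 3 correlated at 0.994 with its closest short washout library and on average at 0.980 with its own group, and its values are set apart in the washout results.

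The CEACAM genes lie together on chromosome 19 of GRCh38, by the GENCODE 29 annotation. CEACAM7 spans chr19:41673307-41706976 on the minus strand, CEACAM5 spans chr19:41708585-41729798 on the plus strand, CEACAM6 spans chr19:41750977-41772208 on the plus strand, and CEACAM1 spans chr19:42507304-42561234 on the minus strand. MSLN is at chr16:760762-768865 (plus strand), FOLR1 at chr11:72189558-72196323 (plus strand) and NECTIN4 at chr1:161070995-161089599 (minus strand). All 7 are protein-coding. An annotated transcript, AC243967.1, overlaps both CEACAM5 and CEACAM6 on the same strand and held at most 23.4 estimated counts in any library. Of the distinct 31-base words in CEACAM5 transcripts, 5.57% also occur in CEACAM6 transcripts, and no word of 150 bases, the length of a read, is shared between the 2 genes, although 10.7% of those of CEACAM5 are shared with AC243967.1.

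Promoter windows of 300 bases (250 before to 50 after the RefSeq start, GRCh38.p14) were found for 5 of the 7 genes, namely the 4 CEACAM genes and NECTIN4. Those of CEACAM5 and CEACAM6 are shown because both genes were lower in persisters of PC9 and HCC2935, and that of NECTIN4 because this gene was higher in persisters of one line and lower in those of others. The stretches that hold no annotated exon are printed 5′ to 3′ on the strand of the gene, with matches to the GC box GGGCGG on either strand in capitals. They are chr19:41708376-41708584 for CEACAM5, chr19:41755280-41755420 for CEACAM6 and chr1:161089600-161089808 for NECTIN4.
CEACAM5: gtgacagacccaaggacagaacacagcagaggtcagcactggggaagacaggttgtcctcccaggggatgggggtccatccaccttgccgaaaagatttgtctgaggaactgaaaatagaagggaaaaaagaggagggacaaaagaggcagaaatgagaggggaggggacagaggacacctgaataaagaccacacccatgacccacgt
CEACAM6: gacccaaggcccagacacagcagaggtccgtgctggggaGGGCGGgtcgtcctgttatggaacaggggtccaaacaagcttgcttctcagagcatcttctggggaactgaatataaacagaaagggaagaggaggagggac
NECTIN4: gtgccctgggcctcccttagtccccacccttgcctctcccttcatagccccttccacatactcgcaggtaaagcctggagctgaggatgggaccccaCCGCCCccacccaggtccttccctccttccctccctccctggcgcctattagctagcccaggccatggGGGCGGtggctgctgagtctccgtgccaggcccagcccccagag

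The CEACAM5 and CEACAM6 windows were identical at 75.9% of alignment positions, and each was closer still to the CEACAM7 window, at 81.4% and 81.2%. Against the NECTIN4 window the 4 CEACAM windows gave 42.6% to 45.9%. Both CEACAM5 and CEACAM6 hold an E-box, CACGTG, starting 46 bases before the start of CEACAM5 and 45 bases before that of CEACAM6, and 30 bases around it are printed with the E-box in capitals (chr19:41708565-41708594 and chr19:41755470-41755499).
CEACAM5: accacacccatgaccCACGTGatgctgaga
CEACAM6: accgcacccatgaccCACGTGaccctggga
The E-box reads the same on both strands and occurs in 7.26% of the 35116 RefSeq promoter windows. It was not found in the windows of CEACAM1, CEACAM7 or NECTIN4. The GC box, searched on both strands, occurs in 45% of windows and was found at 1 place in CEACAM1, 1 in CEACAM6 and 2 in NECTIN4. Neither TGANTCA, the core of AP-1 sites (7.71% of windows), nor TGTTTAC, a forkhead core (3.42%), was found in any of the 5 windows on either strand. A match is a description of these letters only.

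TPM are scaled for transcript length, so these levels can be compared between genes. Without drug the antigens were held mainly by HCC2935, where CEACAM6 was by far the most abundant. Its level in the 3 HCC2935 DMSO libraries was 3455, 3481 and 3449 TPM, 19th or 20th of all genes in each library, and in PC9 it was 62.3, 183 and 176 TPM. HCC827 had 4.42, 4.43 and 6.28 TPM of CEACAM6, and H1975 had no more than 0.0994 TPM. The 4 lines did not overlap for this gene.

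CEACAM1 under DMSO was 15.9, 10.8 and 27.9 TPM in HCC2935, and its means in the other lines were 2.76 ± 0.71 in HCC827, 1.69 ± 0.45 in H1975 and 0.414 ± 0.25 in PC9 (SD, n = 3). CEACAM5 was 6.91, 5.93 and 8.66 TPM in HCC2935 and at most 1.57 TPM in any DMSO library of the other lines. CEACAM7 was 0.933, 1.03 and 3.46 TPM in HCC2935 and was listed at 0 in all 9 DMSO libraries of the other lines. HCC2935 thus held the highest level of each CEACAM gene without drug.

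MSLN under DMSO was 15.6, 17.8 and 15.7 TPM in HCC2935 and was listed at 0 in the 3 PC9 libraries. It was low and uneven in HCC827, with 0.855, 0 and 0.523 TPM, and in H1975, with 0, 0.489 and 0.0202 TPM. FOLR1 was the antigen with another order: it was highest in HCC827, with 14.8, 8.12 and 22 TPM, followed by HCC2935 with 4.00, 4.20 and 4.08 TPM. H1975 had at most 0.310 TPM and PC9 at most 0.126 TPM of FOLR1, or 1 to 3 estimated counts per library in PC9. NECTIN4 was 33.7, 33.7 and 38.0 TPM in HCC2935, 9.89, 1.62 and 6.15 TPM in H1975, 3.02, 2.68 and 3.48 TPM in PC9 and 3.51, 1.27 and 3.73 TPM in HCC827. The last 3 lines overlapped for NECTIN4, and HCC2935 stood above them.

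Over the 20 groups of line and arm the order was coarse. Of the 19 pairs of neighbours in each order, 13 overlapped for CEACAM6, 15 for NECTIN4, 16 for CEACAM1, 17 for MSLN, 17 for FOLR1, 18 for CEACAM5 and all 19 for CEACAM7. Acute HCC2935 cells ranked first for CEACAM5, CEACAM6, CEACAM7, MSLN and NECTIN4, DMSO-treated HCC2935 cells for CEACAM1 and acute HCC827 cells for FOLR1. The difference between lines under DMSO, tested by edgeR's quasi-likelihood F-test with Benjamini-Hochberg adjustment over all genes, was called at an adjusted p under 0.05 for all 7 genes, where 91.2% of all genes tested were called. CEACAM7 was at 0 in every DMSO library of the other lines and MSLN at or near 0, so both entered this test through HCC2935 and had to differ. The plot of levels shows every library.

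**Figure D1:**
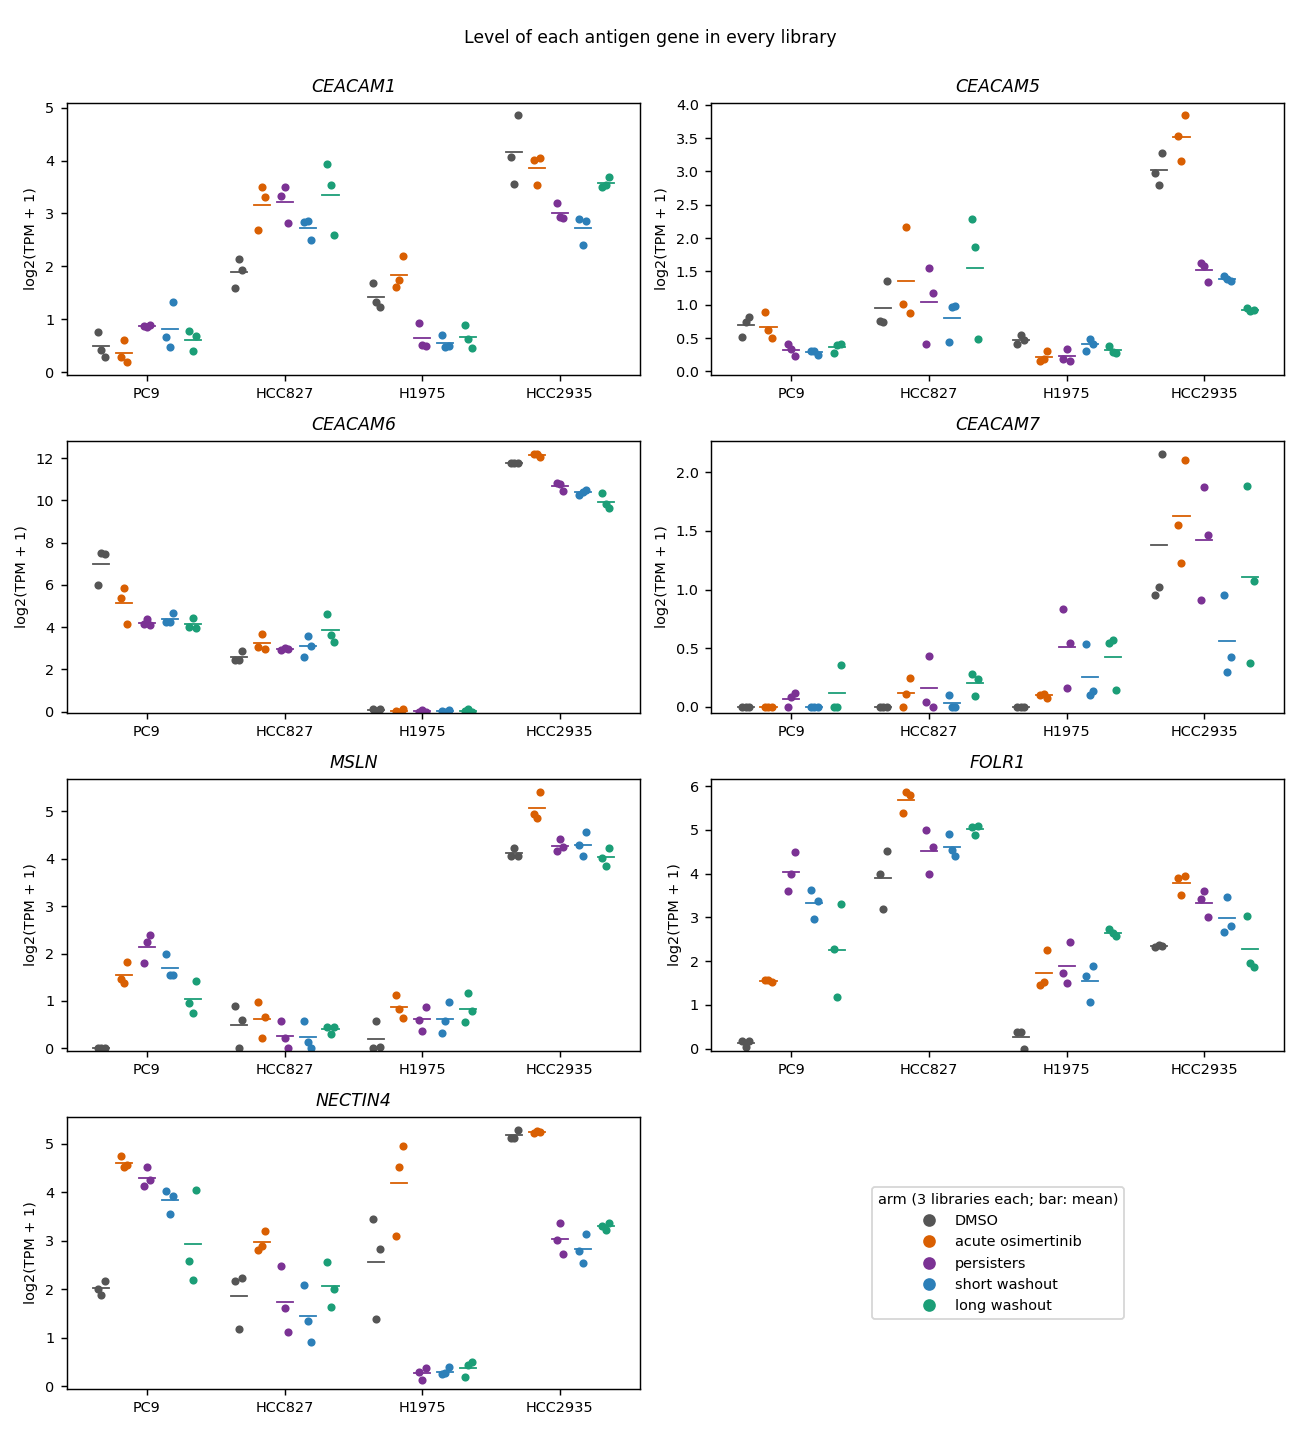
Level of each gene as log2(TPM + 1) in every library, with the 4 lines along the axis, the 5 arms in colour and a bar at the mean of the 3 libraries. CEACAM6 in HCC2935 lies between 797 and 4699 TPM, and FOLR1 in PC9 rises from at most 0.126 TPM under DMSO to between 11.2 and 21.7 TPM in persisters.

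Acute osimertinib raised FOLR1 in all 4 lines, and raised NECTIN4 in 2 of them. In PC9, 3 of the 6 genes tested were higher and 1 was lower, against 34.4% of all genes higher and 34.1% lower. In HCC827, 4 of 6 were higher and none lower, against 20.2% and 22.1%. In H1975, 1 of 5 was higher and 1 lower, against 21.2% and 23.7%, and in HCC2935, 4 of 7 were higher and none lower, against 22% and 25.1%. In PC9, MSLN (0 counts under DMSO) and FOLR1 (at most 3.1) passed the filter on low counts only through the acute cells. The same held for FOLR1 in H1975 (at most 9.6 counts under DMSO). These genes could be called only as higher, and the counts of higher genes include them. MSLN in H1975, with 0, 22.1 and 1 counts under DMSO, also passed only through the acute cells and was not called. Here and below a gene is called at an adjusted p under 0.05 in edgeR's quasi-likelihood test on the 3 against 3 libraries, adjusted over all genes tested in that line. In bulk RNA, a change in the number of expressing cells and a change in RNA per cell cannot be told apart.

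FOLR1 rose after 24 h in every line. In PC9 its level was 1.98, 1.95 and 1.89 TPM in acute cells. The 7 counts of the 3 DMSO libraries set against 163 counts in acute cells gave a 22.8-fold difference (95% exact interval 10.8 to 57.7, counting error only). In H1975 it was 1.73, 1.85 and 3.78 TPM, a log2 fold change of 3.52 ± 0.78 (SE, adjusted p = 0.0088, edgeR). HCC827 had the highest levels, 40.9, 57.5 and 54.7 TPM, with a log2 fold change of 1.68 ± 0.31 (adjusted p = 0.00245, edgeR). In HCC2935 FOLR1 was 14.0, 10.4 and 14.5 TPM, a log2 fold change of 1.64 ± 0.23 (adjusted p = 0.000325, edgeR). The acute and DMSO libraries did not overlap in any line, and the line with the highest starting level, HCC827, stayed the highest.

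NECTIN4 in acute PC9 cells was 25.8, 22 and 22.4 TPM, 7.67-fold above DMSO (log2 fold change 2.94 ± 0.12, adjusted p = 3.24e-07, edgeR). In HCC827 it was 5.97, 6.41 and 8.21 TPM, 2.28-fold above DMSO (adjusted p = 0.0224, edgeR), a call that was lost without acute replicate 2 (adjusted p = 0.0506) or acute replicate 3 (adjusted p = 0.0698) and in the fit of all 15 HCC827 libraries (adjusted p = 0.0761). In H1975 the acute libraries had 7.55, 21.8 and 29.8 TPM, and the log2 fold change of 1.70 ± 0.67 was not called (adjusted p = 0.0736, edgeR). The H1975 libraries were uneven on both sides: acute replicate 1 lay below DMSO replicate 1, and without acute replicate 1 the gene was called (log2 fold change 2.08, adjusted p = 0.0321). HCC2935, which began highest, had 36.0, 37.2 and 36.9 TPM and a log2 fold change of 0.06 ± 0.09 (adjusted p = 0.631, edgeR).

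MSLN appeared in PC9, where it was listed at 0 under DMSO: acute cells had 1.76, 1.59 and 2.54 TPM, or 270 estimated counts in all, at least 29.3-fold above the level of 3 counts per library. In HCC2935 it rose to 29.9, 27.9 and 41.4 TPM, 2.00-fold above DMSO (log2 fold change 1.00 ± 0.15, adjusted p = 0.000474, edgeR). In H1975 the acute libraries had 1.20, 0.787 and 0.552 TPM, above all 3 DMSO libraries, and the log2 fold change of 2.37 ± 1.07 was not called (adjusted p = 0.109, edgeR). DMSO replicate 2 held 22.1 estimated counts of MSLN and the other DMSO replicates at most 1. Without replicate 2 MSLN was called (adjusted p = 0.00296), in a fit where it could be called only as higher. HCC827 had 0.962, 0.167 and 0.572 TPM, which overlapped DMSO.

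The CEACAM genes did not share a direction at 24 h. CEACAM6 fell in PC9 to 40.7, 56.9 and 16.9 TPM, 3.64-fold below DMSO (log2 fold change -1.86 ± 0.49, adjusted p = 0.00779, edgeR). In HCC2935 it rose to 4699, 4639 and 4266 TPM, a small change with little spread (log2 fold change 0.38 ± 0.09, adjusted p = 0.00817, edgeR). In HCC827 it was 7.41, 12 and 6.76 TPM (log2 fold change 0.71 ± 0.26, adjusted p = 0.0495, edgeR), close to the threshold. The HCC827 call was lost without DMSO replicate 1, DMSO replicate 2, acute replicate 1 or acute replicate 2 (adjusted p from 0.0737 to 0.218) and with the replicate number as a block (adjusted p = 0.103) or in the fit of all 15 HCC827 libraries (adjusted p = 0.134). In H1975 CEACAM6 had at most 8.9 estimated counts in any library and did not pass the filter on low counts.

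CEACAM1, the transmembrane member, rose in HCC827 to 5.41, 10.3 and 8.92 TPM (log2 fold change 1.49 ± 0.28, adjusted p = 0.00272, edgeR) and was not called in the other lines. CEACAM5 rose in HCC2935 to 10.6, 7.96 and 13.3 TPM (log2 fold change 0.56 ± 0.19, adjusted p = 0.0378, edgeR) and fell in H1975 to 0.118, 0.141 and 0.240 TPM (log2 fold change -1.25 ± 0.38, adjusted p = 0.0313, edgeR). Both CEACAM5 calls were fragile. In HCC2935 the call was lost without DMSO replicate 1, DMSO replicate 2, acute replicate 1 or acute replicate 3 (adjusted p from 0.0928 to 0.133) and with limma (adjusted p = 0.0772). In H1975 it was kept in 1 of 6 fits that each left out a library, being lost without any DMSO replicate or without acute replicate 1 or 2 (adjusted p from 0.0574 to 0.101) and with the replicate block (adjusted p = 0.0696). CEACAM7 was tested in HCC2935 alone, where it was 1.93, 1.34 and 3.31 TPM and was not called (log2 fold change 0.28 ± 0.54, adjusted p = 0.702, edgeR).

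**Figure D2:**
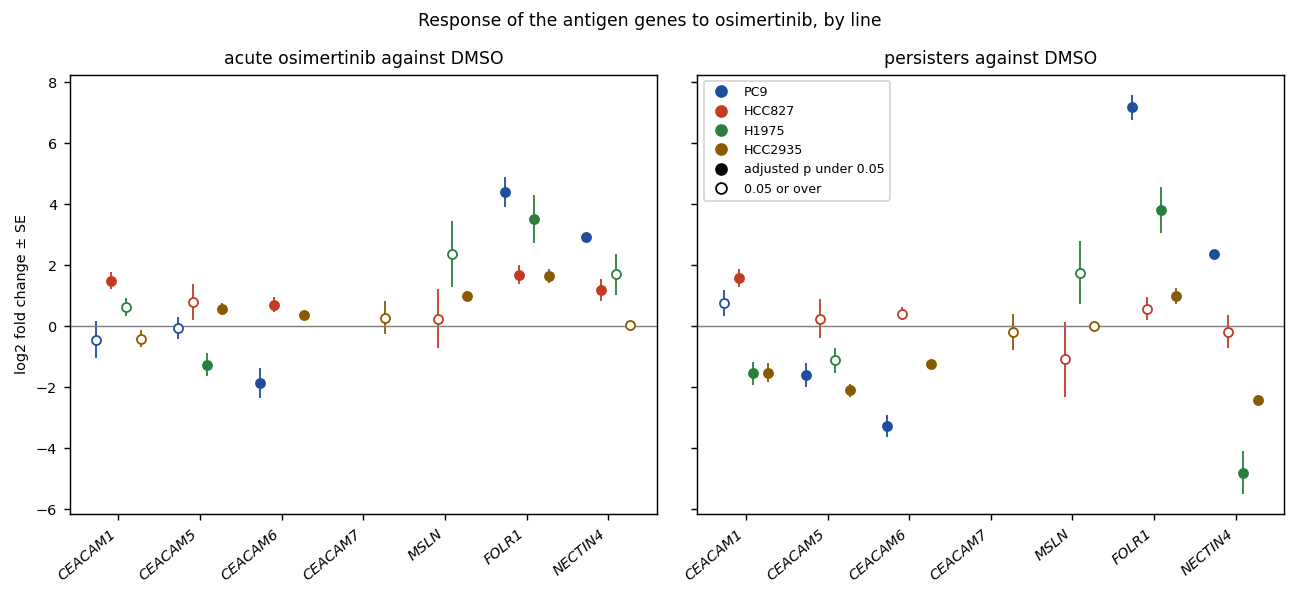
Log2 fold change ± SE of each gene in acute cells (left) and persisters (right) against DMSO of the same line, with lines in colour and filled points for an adjusted p under 0.05 (edgeR, 3 libraries against 3). MSLN in PC9 is left out because its DMSO libraries are at 0. FOLR1 lies above 0 in acute cells of all 4 lines, while NECTIN4 in persisters runs from 2.36 in PC9 to -4.80 in H1975.

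After 21 days of drug the called direction differed between lines for some antigens. NECTIN4 was higher than under DMSO in PC9 persisters and lower in H1975 and HCC2935 persisters. CEACAM6 and CEACAM5 were lower in PC9 and HCC2935, and FOLR1 was higher in PC9, H1975 and HCC2935. In PC9, 3 of 6 genes were higher and 2 lower, where 35.4% of all genes were higher and 35.9% lower. In HCC827, 1 of 6 was higher and none lower, where the shares were 19.4% and 17.2%. In H1975, 1 of 5 was higher and 2 lower (22.4% and 23.4% of all genes), and in HCC2935, 1 of 7 was higher and 4 lower (25.3% and 27.2%). MSLN and FOLR1 in PC9 and FOLR1 in H1975 passed the filter on low counts only through the persisters. They could be called only as higher, and the counts of higher genes include them. MSLN in H1975, with 0, 22.1 and 1 counts under DMSO, also passed only through the persisters and was not called. This comparison uses the same DMSO libraries as that of acute cells.

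NECTIN4 in PC9 persisters was 16.6, 21.8 and 18.1 TPM, 5.12-fold above DMSO (log2 fold change 2.36 ± 0.14, adjusted p = 3.69e-07, edgeR). In H1975 it was 0.234, 0.0909 and 0.307 TPM, 27.9-fold below DMSO (log2 fold change -4.80 ± 0.71, adjusted p = 0.000926, edgeR). All 3 H1975 persister libraries lay below the lowest DMSO library, and the fold change was -4.20 without DMSO replicate 1, the highest of the 3. In HCC2935 NECTIN4 was 7.07, 9.31 and 5.66 TPM, 5.38-fold below DMSO (log2 fold change -2.43 ± 0.17, adjusted p = 8.89e-06, edgeR). HCC827 persisters had 4.61, 2.06 and 1.18 TPM, which overlapped DMSO (log2 fold change -0.17 ± 0.53, adjusted p = 0.827, edgeR).

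FOLR1 in PC9 persisters was 11.2, 14.9 and 21.7 TPM, and its 1198 counts against 7 under DMSO gave a 175-fold difference (95% exact interval 84.8 to 437, counting error only). In H1975 persisters it was 2.31, 1.82 and 4.40 TPM, above DMSO by 3.80 ± 0.76 on the log2 scale (adjusted p = 0.00366, edgeR). In HCC2935 it was 9.66, 11.1 and 7.06 TPM, 1.99-fold above DMSO (adjusted p = 0.0127, edgeR), a call lost without persister replicate 2 (adjusted p = 0.0536). In HCC827 the persisters had 30.8, 14.9 and 23.3 TPM, which overlapped DMSO (log2 fold change 0.58 ± 0.38, adjusted p = 0.261, edgeR).

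MSLN in PC9 persisters was 2.49, 3.74 and 4.24 TPM, at least 47.7-fold above the level of 3 counts per DMSO library. HCC2935 persisters had 16.9, 20.4 and 18 TPM of MSLN, and the log2 fold change was -0.00 ± 0.14 (adjusted p = 0.991, edgeR). H1975 persisters had 0.509, 0.295 and 0.834 TPM and the gene was not called (adjusted p = 0.195, edgeR), although it was without DMSO replicate 2 (adjusted p = 0.00353). In that fit it could be called only as higher. In HCC827 it was at most 0.502 TPM.

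CEACAM6 in PC9 persisters was 17, 19.6 and 16.1 TPM, 9.62-fold below DMSO (log2 fold change -3.27 ± 0.35, adjusted p = 1.9e-05, edgeR). In HCC2935 it was 1804, 1761 and 1375 TPM, 2.37-fold below DMSO (log2 fold change -1.24 ± 0.11, adjusted p = 3.54e-05, edgeR). Even so, CEACAM6 remained the most abundant of the 7 genes in every HCC2935 library. HCC827 persisters had 6.53, 7.17 and 6.89 TPM and the gene was not called (adjusted p = 0.165, edgeR). CEACAM5 moved with it: HCC2935 persisters had 2.08, 1.99 and 1.54 TPM, 4.29-fold below DMSO (log2 fold change -2.10 ± 0.21, adjusted p = 5.91e-05, edgeR), and PC9 persisters had 0.325, 0.264 and 0.171 TPM, 3.01-fold below (adjusted p = 0.00476, edgeR). The ratio of CEACAM6 to CEACAM5 in TPM was 399 to 587 in HCC2935 under DMSO and 868 to 893 in its persisters, and in PC9 it was 143 to 272 under DMSO and 52.3 to 94 in persisters. The ratio thus moved in opposite directions in the 2 lines, which was not tested. In PC9 it rests on 34.6 to 69.1 estimated counts of CEACAM5 per DMSO library and 15.2 to 22.9 per persister library. In H1975 CEACAM5 was 0.136, 0.262 and 0.119 TPM and was not called (adjusted p = 0.0525, edgeR), but was without persister replicate 2 (adjusted p = 0.0254).

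CEACAM1 took both directions in persisters. It rose in HCC827 to 9.04, 10.3 and 6.03 TPM, 2.99-fold above DMSO (log2 fold change 1.58 ± 0.29, adjusted p = 0.00308, edgeR). It fell in H1975 to 0.898, 0.426 and 0.403 TPM, 2.92-fold below DMSO (adjusted p = 0.0111, edgeR), and in HCC2935 to 8.14, 6.68 and 6.49 TPM, 2.86-fold below (adjusted p = 0.0025, edgeR). In PC9 it was 0.840, 0.802 and 0.848 TPM, above all 3 DMSO libraries, and was not called (log2 fold change 0.75 ± 0.42, adjusted p = 0.139, edgeR), although it was without DMSO replicate 1 (adjusted p = 0.0154). CEACAM7 in HCC2935 persisters was 0.885, 2.67 and 1.76 TPM, which overlapped DMSO. In H1975, where the gene was listed at 0 under DMSO, persisters had 0.786, 0.120 and 0.455 TPM of CEACAM7, or 67 counts in all, at least 7.50-fold above the level of 3 counts per library. It did not pass the filter there, so this has no test.

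Set directly against acute cells, persisters had less NECTIN4 in all 4 lines. The log2 fold change was -0.58 ± 0.11 in PC9 (adjusted p = 0.00306), -1.42 ± 0.41 in HCC827 (adjusted p = 0.0354), -6.57 ± 0.60 in H1975 (adjusted p = 0.000482) and -2.49 ± 0.17 in HCC2935 (adjusted p = 3.98e-06, all edgeR). In H1975 that was a 95-fold difference. The HCC827 call was kept in 1 of 6 fits that each left out a library, the one without persister replicate 1 (log2 fold change -2.06, adjusted p = 0.00099), and was lost without persister replicate 2 or 3 or any acute replicate (adjusted p from 0.0608 to 0.106) and in the fit of all 15 HCC827 libraries (adjusted p = 0.0549). The PC9 call was lost in the fit of all 15 PC9 libraries (adjusted p = 0.200) and with limma on log2 TPM (adjusted p = 0.0516). FOLR1 split between lines. It was 6.79-fold higher in PC9 persisters than in acute cells (adjusted p = 0.000106, edgeR) and 2.23-fold lower in HCC827 persisters (adjusted p = 0.0111, edgeR).

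CEACAM6 was lower in persisters than in acute cells in HCC2935, 3.11-fold (adjusted p = 1.29e-05, edgeR), and in PC9, 2.63-fold (adjusted p = 0.0163, edgeR). CEACAM5 was lower by 6.33-fold in HCC2935 (adjusted p = 1.29e-05, edgeR) and 2.87-fold in PC9 (adjusted p = 0.0171, edgeR). In PC9 the CEACAM6 call was lost without persister replicate 1 (adjusted p = 0.0551) or 3 (adjusted p = 0.0573) and with limma (adjusted p = 0.0576), and the CEACAM5 call without acute replicate 1 (adjusted p = 0.0656) or persister replicate 3 (adjusted p = 0.0626). CEACAM1 was 4.67-fold lower in H1975 (adjusted p = 0.00503, edgeR) and 2.17-fold lower in HCC2935 (adjusted p = 0.000878, edgeR). MSLN was 2.01-fold lower in HCC2935 (adjusted p = 0.000561, edgeR). In all, 4 of 6 genes were called in PC9, 2 of 6 in HCC827, 2 of 5 in H1975 and 5 of 7 in HCC2935, where 39.8%, 29.5%, 26.2% and 42.4% of all genes were called in either direction.

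Removing the drug for 24 h called 1 gene, NECTIN4 in PC9. It was 15.3, 10.7 and 14.2 TPM after the short washout, 1.40-fold below persisters (log2 fold change -0.49 ± 0.13, adjusted p = 0.0308, edgeR). That call was lost without persister replicate 2 or 3 or short washout replicate 2 or 3 (adjusted p from 0.0526 to 0.0952), with the replicate block (adjusted p = 0.073) and in the fit of all 15 PC9 libraries (adjusted p = 0.402). FOLR1 in PC9 was 11.4, 6.82 and 9.41 TPM against 11.2, 14.9 and 21.7 in persisters and missed the threshold (log2 fold change -0.79 ± 0.25, adjusted p = 0.0502, edgeR), but was called without persister replicate 1 (adjusted p = 0.0254) and by DESeq2 (adjusted p = 0.0105). Of all genes, 22.2% were called in PC9, 0% in HCC827, 0% in H1975 and 3.52% in HCC2935. In HCC827, H1975 and HCC2935 edgeR called 0 of the 5, 6 and 7 antigen genes tested, and 1, 0 and 2 of them had an unadjusted p under 0.05. DESeq2 and limma called none there either. The replicate numbers paired the libraries of HCC827 and of H1975 in this comparison. With the number as a block, 1697 genes were called in H1975 and 2 in HCC827, and none of them was an antigen gene. Without the block, edgeR called 0 genes in both lines, with 197 genes in HCC827 and 1950 in H1975 at an unadjusted p under 0.05, while DESeq2 called 1 and 400.

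Long washout also called 1 gene against persisters, MSLN in PC9. Its level was 0.930, 0.683 and 1.69 TPM, 2.99-fold below persisters (log2 fold change -1.58 ± 0.37, adjusted p = 0.0338, edgeR). The call was kept without long washout replicate 3 (adjusted p = 0.0021) and was lost without any of the other 5 libraries (adjusted p from 0.0789 to 0.128). NECTIN4 in PC9 was 5.03, 3.54 and 15.4 TPM and FOLR1 was 3.84, 1.26 and 8.90 TPM. The third replicate, the library that resembled the short washout, was the high one for MSLN, NECTIN4 and FOLR1. With it the log2 fold change against persisters was -1.18 ± 0.46 for NECTIN4 (adjusted p = 0.0987, edgeR) and -1.71 ± 0.56 for FOLR1 (adjusted p = 0.068, edgeR). Without it both were called, at -1.99 (adjusted p = 0.000145) and -2.52 (adjusted p = 0.00248). FOLR1 was also called in 3 of 6 alternatives: with the replicate block, at -1.95 (adjusted p = 0.0415), by DESeq2 and in the fit of all 15 PC9 libraries. NECTIN4 was called in 1 of 6, the fit of all 15 PC9 libraries.

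In the other lines no antigen gene was called between long washout and persisters by edgeR. Unadjusted p-values were under 0.05 for 1 of 5 genes tested in HCC827, 1 of 6 in H1975 and 4 of 7 in HCC2935, and DESeq2 called 0, 0 and 3 of them. Limma called none in these 3 lines. In HCC2935 CEACAM5 was 0.937, 0.868 and 0.901 TPM (adjusted p = 0.0807 by edgeR and 0.0405 by DESeq2), and CEACAM6 was 1305, 900.4 and 797 TPM (adjusted p = 0.0565 by edgeR and 0.0027 by DESeq2). The third gene that DESeq2 called was CEACAM1 (adjusted p = 0.012). CEACAM6 there, CEACAM1 (0.66 ± 0.17 on the log2 scale, adjusted p = 0.0551) and FOLR1 (-1.08 ± 0.40, adjusted p = 0.15) were called by edgeR without long washout replicate 1 (adjusted p = 0.009, 0.0369 and 0.019). Of all genes, 17.3% were called in PC9, 0% in HCC827, 0.0136% in H1975 and 5.16% in HCC2935. In HCC827 edgeR called 0 genes, 434 had an unadjusted p under 0.05 and DESeq2 called 7.

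**Figure D3:**
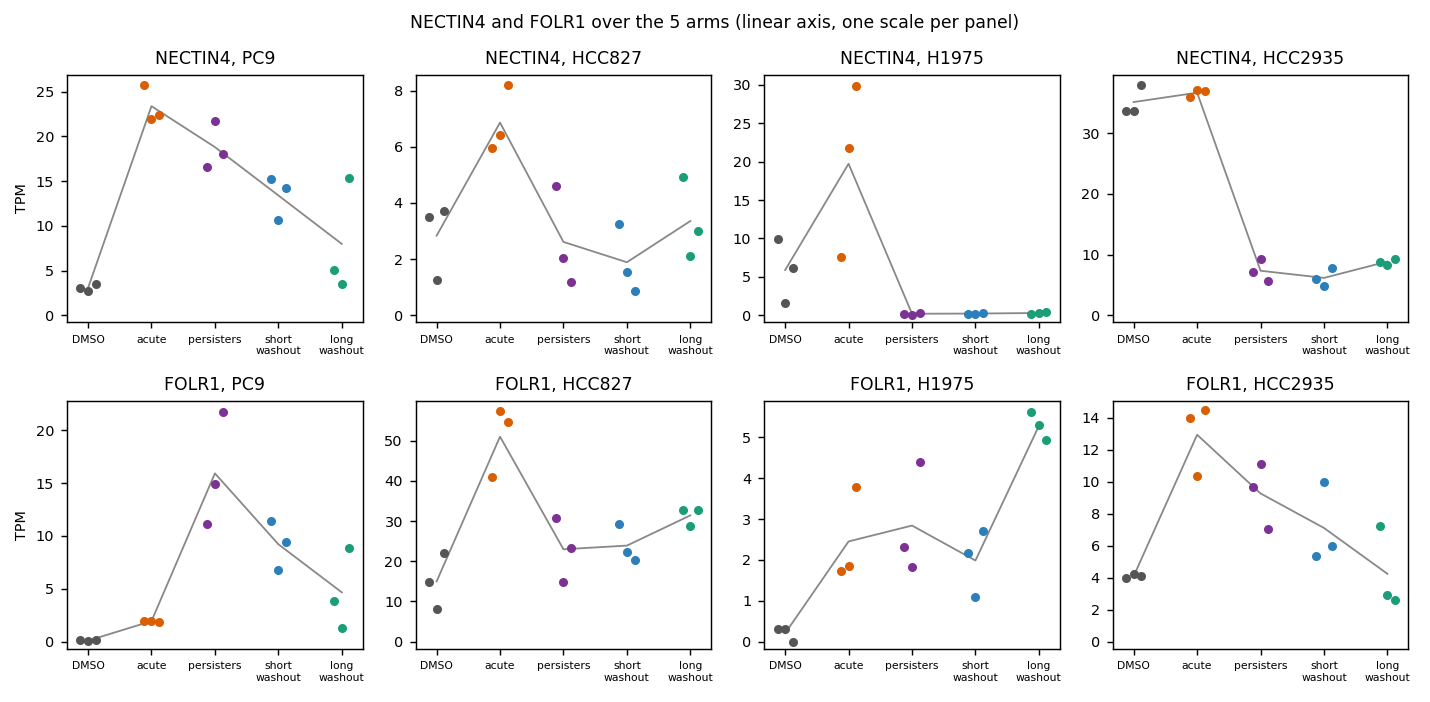
NECTIN4 (top) and FOLR1 (bottom) in TPM over the 5 arms of each line, with 1 point per library and a grey line through the group means, each panel on its own linear scale. NECTIN4 in H1975 stays at or below 0.423 TPM in all 9 persister and washout libraries, and in PC9 the third long washout library, at 15.4 TPM, lies apart from the other two.

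At the end of the long washout, when the cells were proliferating again, some antigens remained away from DMSO. NECTIN4 was 0.138, 0.365 and 0.423 TPM in H1975, 18.9-fold below DMSO (log2 fold change -4.24 ± 0.70, adjusted p = 0.00134, edgeR), and 8.87, 8.37 and 9.35 TPM in HCC2935, 4.21-fold below (log2 fold change -2.07 ± 0.11, adjusted p = 2.45e-06, edgeR). Without H1975 DMSO replicate 1 the H1975 value was -3.65. In PC9 NECTIN4 was not called (log2 fold change 1.19 ± 0.47, adjusted p = 0.0841, edgeR). The PC9 value was 0.37 without long washout replicate 3 and was called without long washout replicate 2 (log2 fold change 1.52, adjusted p = 0.0187). It was also called in 2 of 6 alternatives, DESeq2 and the fit of all 15 PC9 libraries.

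FOLR1 in H1975 was highest after the long washout, at 5.62, 5.30 and 4.93 TPM, above DMSO by 4.68 ± 0.64 on the log2 scale (adjusted p = 0.000494, edgeR). In PC9 its 324 counts against 7 under DMSO gave a 49.8-fold difference (95% exact interval 23.9 to 125, counting error only). The fitted log2 fold change in PC9 was 5.46 ± 0.85 (adjusted p = 0.00482, edgeR), or 4.66 without long washout replicate 3. In HCC827 it was 32.7, 28.7 and 32.9 TPM, 2.00-fold above DMSO (adjusted p = 0.0303, edgeR), a call lost without DMSO replicate 1 or any long washout replicate (adjusted p from 0.0541 to 0.0858). HCC2935 alone had FOLR1 overlapping DMSO, with 7.22, 2.89 and 2.62 TPM. MSLN in PC9 was at least 15.5-fold above the level of 3 counts per DMSO library. In H1975 it had 0.463, 1.24 and 0.726 TPM and was not called (adjusted p = 0.0913, edgeR), but was without DMSO replicate 2 (adjusted p = 0.000824). In that fit it could be called only as higher.

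CEACAM6 after the long washout was 15.3, 20.7 and 14.4 TPM in PC9, 9.23-fold below DMSO (adjusted p = 0.00281, edgeR), and 3.7-fold below DMSO in HCC2935 (adjusted p = 3.12e-05, edgeR). In HCC827 it was 23.7, 11.2 and 8.84 TPM, 2.78-fold above DMSO (adjusted p = 0.00977, edgeR). CEACAM5 was 8.51-fold below DMSO in HCC2935 (log2 fold change -3.09 ± 0.22, adjusted p = 1.13e-05, edgeR) and 2.38-fold below in PC9 (adjusted p = 0.0405, edgeR). The PC9 call was kept in 1 of 6 fits that each left out a library, the one without long washout replicate 2, and was lost in the other 5 (adjusted p from 0.0582 to 0.141), with the replicate block (adjusted p = 0.063) and with limma (adjusted p = 0.0751). CEACAM5 in HCC827 was called without long washout replicate 3 (adjusted p = 0.0207) and not with it (adjusted p = 0.205). CEACAM1 was above DMSO in HCC827, 3.48-fold (adjusted p = 0.00504, edgeR), and below it in H1975, 2.83-fold (adjusted p = 0.00944, edgeR). In HCC2935 it was 10.3, 10.6 and 11.9 TPM, 1.75-fold below DMSO (adjusted p = 0.0428, edgeR), a call kept without DMSO replicate 2 and lost without any of the other 5 libraries (adjusted p from 0.0629 to 0.146) and with limma (adjusted p = 0.125). In all, 4 of 6 genes were called in PC9, 3 of 5 in HCC827, 3 of 5 in H1975 and 4 of 7 in HCC2935, where 30.6%, 39.7%, 55% and 39.9% of all genes were. These counts include MSLN and FOLR1 in PC9 and FOLR1 in H1975. There they passed the filter on low counts only through the long washout cells and could be called only as higher. MSLN in H1975 also passed only through the long washout cells and was not called.

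Whether the responses differed between lines was tested as the interaction of line and treatment over 24 libraries. For acute cells the interaction was called for 5 of 7 genes, where 40.5% of all genes were called: CEACAM6 (adjusted p = 0.0024), MSLN (0.00352), FOLR1 (0.0064), NECTIN4 (0.00684) and CEACAM1 (0.0267), by edgeR's F-test with 3 degrees of freedom. CEACAM5 (adjusted p = 0.0696) and CEACAM7 (adjusted p = 0.0874) were not called. For persisters it was called for all 7, where 61.6% of all genes were called, with the lowest adjusted p for NECTIN4 (8.88e-07). FOLR1, which rose in each line at 24 h, had responses of unequal size there. Its DMSO libraries held at most 3.1 counts in PC9 and 9.6 in H1975, so the fold changes of these lines rest on few counts. The tests of MSLN and CEACAM7 include groups with every library at 0. Both genes passed the filter on low counts through groups where they were high, so any call of them here is description only.

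The genes whose pattern was most like that of each antigen were found by Pearson correlation over the 20 group means of log2(TPM + 1), centred on each line, among 8171 genes. These points share libraries and lines and are a description. NECTIN4 was most like IL36RN (r = 0.956), METTL27 (0.951) and ALDH3B2 (0.946). MSLN was most like WDR5B (0.952), MUC16 (0.945), which encodes its binding partner, and NKPD1 (0.941). FOLR1 was most like the histone genes H4C8 (0.938) and H2AC6 (0.937) and RWDD2A (0.926). CEACAM5 was most like CXCL17 (0.936), ITIH5 (0.927) and GALNT4 (0.926). For CEACAM6 the 3 genes were CAPN8 (0.848), ENTPD6 (0.834) and TRIM7 (0.833), for CEACAM1 NPC2 (0.862), NEK3 (0.839) and ZNF385A (0.836), and for CEACAM7 ETFRF1 (0.863), MFSD13A (0.777) and PIP (0.77). Among the 7 antigens themselves, the pairs with r above 0.7 were MSLN with FOLR1 (0.829), CEACAM1 with NECTIN4 (0.707) and CEACAM5 with CEACAM6 (0.706). The r of CEACAM6 was negative with FOLR1 (-0.417) and MSLN (-0.381), although CEACAM6, FOLR1 and MSLN were all called higher in acute HCC2935 cells.

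A list of 30 other antibody targets places these genes among surface proteins of like use. In persisters 11 of its 28 tested genes were higher and 10 lower in PC9, 6 of 26 and 7 in HCC827, 9 of 28 and 5 in H1975, and 10 of 27 and 7 in HCC2935. The shares of all genes higher and lower were 35.4% and 35.9%, 19.4% and 17.2%, 22.4% and 23.4%, and 25.3% and 27.2%. The list's median log2 fold change was 0.11, -0.34, 0.10 and 0.02, and that of all genes tested lay between -0.00 and 0.02. Of the genes called in all 4 lines, VTCN1, GPNMB and L1CAM had the largest mean changes. VTCN1 is an inhibitory ligand of the B7 family, GPNMB a glycoprotein of melanosomes and lysosomes, and L1CAM a neural adhesion molecule. EPCAM, also on this list, was called lower in all 4 lines (mean log2 fold change -1.72). VTCN1 was higher in persisters of all 4 lines, by 4.80 ± 0.27 (SE) in PC9, 3.68 ± 0.60 in HCC827, 4.53 ± 0.41 in H1975 and 2.49 ± 0.29 in HCC2935 on the log2 scale. GPNMB was higher in all 4, by 1.41 ± 0.41 in H1975 to 5.27 ± 0.14 in PC9. L1CAM was higher in HCC827, H1975 and HCC2935 and lower in PC9 (-0.84 ± 0.17). None of the 7 antigens was called in the same direction in persisters of all 4 lines.

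**Figure D4:**
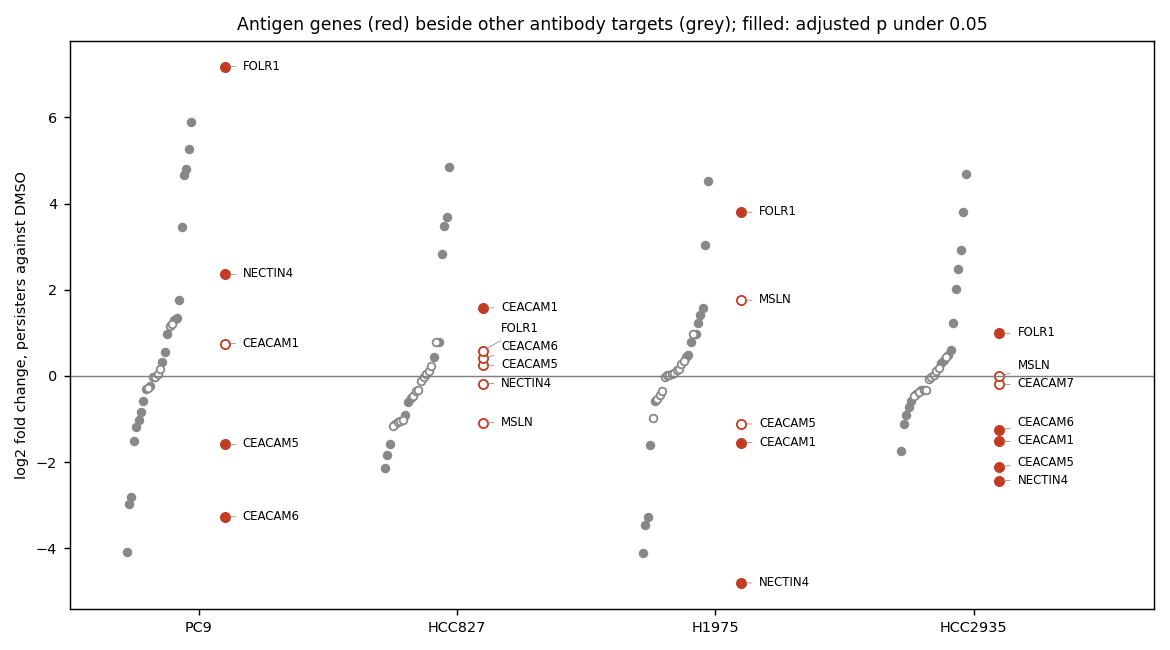
Log2 fold change in persisters against DMSO for the 7 antigens (red, named) beside other antibody targets (grey, sorted within each line), filled where the adjusted p is under 0.05 (edgeR). MSLN in PC9 is left out because its DMSO libraries are at 0. In H1975 NECTIN4, at -4.80, lies below every other antibody target tested in that line, and in PC9 FOLR1, at 7.18, lies above every one.

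Partners and relatives of the antigens were read from fixed lists. MUC16, which mesothelin binds, was higher in acute cells of all 4 lines, by 4.95 ± 0.29 in PC9, 0.74 ± 0.20 in HCC827, 2.36 ± 0.33 in H1975 and 1.67 ± 0.28 in HCC2935 on the log2 scale, and in persisters it was called in PC9 only (5.89 ± 0.27). In its list of 7 partners and shedding proteases, 5 were higher and 1 lower of 7 tested in acute PC9 and in acute HCC827, 2 and 0 of 6 in H1975, and 3 and 0 of 7 in HCC2935. In persisters 3 and 2 of 6 were higher and lower in PC9, 1 and 0 of 7 in HCC827, 3 and 1 of 6 in H1975 and 6 and 0 of 7 in HCC2935. The shares of all genes in acute cells were 34.4% and 34.1%, 20.2% and 22.1%, 21.2% and 23.7%, and 22% and 25.1%. Those in persisters were 35.4% and 35.9%, 19.4% and 17.2%, 22.4% and 23.4%, and 25.3% and 27.2%. BACE2, a membrane protease, was higher in persisters of HCC827 (1.01 ± 0.23), H1975 (2.24 ± 0.14) and HCC2935 (1.04 ± 0.10). FURIN, a proprotein convertase, was lower in PC9 (-0.88 ± 0.09) and H1975 (-0.56 ± 0.12) and higher in HCC2935 (0.27 ± 0.10), and ADAM10, a sheddase, was higher in HCC2935 (0.46 ± 0.08), H1975 (0.35 ± 0.11) and PC9 (0.23 ± 0.07).

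Folate genes other than FOLR1 formed another list. Of 12 folate receptors, carriers and enzymes 10 were tested, and in persisters 2 were higher and 8 lower in PC9, 0 and 5 in HCC827, 2 and 6 in H1975 and 1 and 6 in HCC2935, with list medians of -0.65, -0.46, -0.70 and -0.67 on the log2 scale. In acute cells the counts were 1 and 8, 2 and 7, 1 and 7, and 1 and 6. The shares of all genes in persisters were 35.4% and 35.9%, 19.4% and 17.2%, 22.4% and 23.4%, and 25.3% and 27.2%. Those in acute cells were 34.4% and 34.1%, 20.2% and 22.1%, 21.2% and 23.7%, and 22% and 25.1%. TYMS, which makes thymidylate, was lower in persisters of all 4 lines (-0.76 ± 0.23 in HCC827 to -1.83 ± 0.18 in HCC2935), as was SHMT1, a serine hydroxymethyltransferase (-0.81 ± 0.15 in H1975 to -1.19 ± 0.15 in HCC827). The other folate receptors FOLR2 and FOLR3 did not pass the filter in these comparisons.

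Of 9 nectins, nectin-like molecules and afadin, persisters had 2 higher and 2 lower of 6 tested in PC9, 3 and 0 of 7 in HCC827, 5 and 1 of 7 in H1975 and 3 and 1 of 7 in HCC2935, and acute cells had 2 and 2, 2 and 0, 3 and 1, and 0 and 3. The shares of all genes in persisters were 35.4% and 35.9%, 19.4% and 17.2%, 22.4% and 23.4%, and 25.3% and 27.2%. Those in acute cells were 34.4% and 34.1%, 20.2% and 22.1%, 21.2% and 23.7%, and 22% and 25.1%. In H1975 persisters, where NECTIN4 fell, CADM1, a nectin-like adhesion molecule, rose by 3.11 ± 0.16 on the log2 scale, NECTIN3 by 1.19 ± 0.23 and NECTIN2 by 1.21 ± 0.12. In HCC2935, where NECTIN4 fell as well, CADM1 rose by 1.67 ± 0.12 and NECTIN3 by 0.57 ± 0.09. These changes were not limited to lines where NECTIN4 fell. CADM1 was called in all 3 lines where it was tested (mean log2 fold change 2.50), and NECTIN3 in 3 of 4 (mean 0.85). Of the 8 other CEACAM genes, CEACAM19 was tested in all lines and was higher in PC9 persisters (1.41 ± 0.18) and lower in HCC2935 persisters (-0.52 ± 0.18). CEACAM20 was tested in H1975 (0.56 ± 0.56, not called), and the remaining 6 did not pass the filter in any line in either comparison with DMSO.

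The machinery that attaches and trims GPI anchors serves CEACAM5, CEACAM6, CEACAM7, MSLN and FOLR1. Of its 12 genes persisters had 6 higher and 2 lower in PC9, 2 and 1 in HCC827, 2 and 2 in H1975 and 0 and 1 in HCC2935, and list medians were between -0.02 and 0.24 on the log2 scale. Acute cells had 6 and 3, 2 and 2, 1 and 3, and 4 and 3. The shares of all genes in persisters were 35.4% and 35.9%, 19.4% and 17.2%, 22.4% and 23.4%, and 25.3% and 27.2%. Those in acute cells were 34.4% and 34.1%, 20.2% and 22.1%, 21.2% and 23.7%, and 22% and 25.1%. PIGA, of the first step of anchor synthesis, was lower in persisters of HCC827 (-0.76 ± 0.19), H1975 (-0.60 ± 0.13) and HCC2935 (-1.11 ± 0.18). PIGT, of the transamidase, was higher in PC9 (0.46 ± 0.06), HCC827 (0.68 ± 0.13) and H1975 (0.48 ± 0.13), and PGAP3, which remodels the lipid, in PC9 (1.35 ± 0.11) and HCC827 (1.26 ± 0.26).

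Markers of other cell types moved with some of these results. In HCC827 and HCC2935, the summed level of 6 mesenchymal markers was 87.1 to 119 TPM and 57.7 to 70.1 TPM under DMSO and 649 to 820 TPM and 379 to 441 TPM in persisters, with 5 of 5 and 4 of 5 tested markers higher. In H1975 it was 1011 to 1957 TPM under DMSO and 1713 to 2102 TPM in persisters, with 2 of 5 higher. In PC9 it was 21.7 to 27.3 TPM under DMSO and 20.7 to 32.6 TPM in persisters, with 1 higher and 2 lower. The shares of all genes higher in persisters were 19.4% in HCC827, 25.3% in HCC2935, 22.4% in H1975 and 35.4% in PC9. Those lower were 17.2%, 27.2%, 23.4% and 35.9%. The epithelial marker CDH1, an adhesion partner at the junctions that hold NECTIN4, fell in persisters of H1975 (log2 fold change -5.14 ± 0.41) and HCC827 (-1.81 ± 0.34) and rose in PC9 (1.08 ± 0.06), and in HCC2935, where NECTIN4 fell, it was not called (-0.09 ± 0.09). EPCAM was lower in persisters of all 4 lines, including PC9 (-1.18 ± 0.07), where NECTIN4 rose. KRT18 was called in 3 of 4 lines (mean log2 fold change -0.73). The 8 lung and epithelial markers summed to 8596 to 8948 TPM under DMSO and 9753 to 10183 TPM in persisters of PC9. In HCC827 the sums were 8306 to 10683 and 3360 to 5916 TPM. They were 3616 to 4622 and 2373 to 3110 TPM in H1975, and 12464 to 13757 and 10490 to 11572 TPM in HCC2935. The part of these changes in the antigens was not tested. Of the 4 colonic markers none exceeded 4.12 TPM in any library, and of the 3 granulocyte markers none exceeded 2.88 TPM. Of 3 mesothelial markers, UPK3B was higher in persisters of PC9 (3.45 ± 0.14) and HCC2935 (2.52 ± 0.17), CALB2 was lower in PC9 (-3.30 ± 0.14), where MSLN appeared, and WT1 was higher in H1975 (2.73 ± 0.43) and did not exceed 1.4 TPM in any library. Of the 4 leukocyte markers CD68 reached 175 TPM, while PTPRC was at most 3.48 TPM and CD3E at most 0.246 TPM. Their summed level in HCC2935, where CEACAM1, CEACAM5, CEACAM6 and NECTIN4 fell, was 74.6 to 109 TPM under DMSO and 10 to 10.9 TPM in persisters, and both markers tested were lower there, CD68 (-3.32 ± 0.15) and LYZ (-2.03 ± 0.66). In PC9 persisters CD68 was lower (-0.70 ± 0.14), and in H1975 persisters PTPRC was (-1.51 ± 0.32). The part of these changes in the antigens was not tested either.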

How the data were processed

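RNA-seq of 60 libraries (4 lines, 5 arms, 3 biological replicates) was analysed. The deposited tables hold estimated counts per gene, which the authors produced with tools that the submitters' processing notes list as HISAT2 2.1.0 and Salmon 0.8.2, with hg38, and log2 TPM values, which the authors deposited after adding 0.01 to TPM. The annotation and the use of strand are not given in the sources used here, so reads of overlapping antisense genes could not be set apart. Library totals were 17.7 M to 49.1 M estimated counts.

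Groups followed the labels. The 7 genes and the gene lists were chosen with earlier results of these data known. The rules for members and named genes give 2 further genes, which are not reported here. Beside all 7 genes, the text names for each the 3 genes most correlated with it. In each list, the 3 genes called in most lines in persisters, then with the largest mean change, were to be named, and other list members that are named were picked after their values were seen.

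Estimated counts were rounded. Each comparison was fitted on its own 6 libraries in R 4.3.3 with edgeR 4.0.16 (filterByExpr with a minimum count of 10, TMM, quasi-likelihood F-test) and adjusted by Benjamini-Hochberg over all genes tested, with 0.05 as the threshold. SE is the log2 fold change divided by the root of F. Line differences were F-tests over all 4 lines. Folds against groups at 0 used a floor of 3 counts per library, and count ratios an exact 95% interval, for counting error only. Alternatives were DESeq2 1.42.0, RLE factors, no filter, limma 3.58.1 on log2 TPM, a replicate block, all 15 libraries of a line, and each library left out. In simulated counts for persisters against DMSO on 13997 to 14753 genes, 82% to 86% of 2-fold and 99% to 100% of 4-fold changes were recovered. For the difference between lines in the persister response, 52% of 2-fold and 99% of 4-fold changes were. The simulation gave all genes the same dispersion and changed only genes above a minimum mean count. It therefore does not cover antigen genes with low counts or a wide spread between replicates. Same-numbered replicates were taken as paired where the deviations of every pair correlated above 0.1, which held in 3 of 24 comparisons. These were acute cells against DMSO in HCC2935 and the short washout against persisters in H1975 and HCC827, and the pairing comes from the data, since the labels give only a number. Motifs and k-mers were searched with Python 3.11.15.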

Additional observations from a re-analysis of the deposited data

Results flagged for a closer look

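The response differed between lines by the test of the interaction itself (edgeR quasi-likelihood F-test, 3 degrees of freedom, adjusted over all genes) for 5 genes in acute cells and for 7 in persisters. In acute cells the adjusted p was 0.0267 for CEACAM1, 0.0024 for CEACAM6, 0.00352 for MSLN, 0.0064 for FOLR1 and 0.00684 for NECTIN4. In persisters it was 2.91e-05 for CEACAM1, 0.0204 for CEACAM5, 4.31e-06 for CEACAM6, 0.0109 for CEACAM7, 0.000378 for MSLN, 2.36e-06 for FOLR1 and 8.88e-07 for NECTIN4. CEACAM7 was at 0 in every DMSO library of PC9, HCC827 and H1975, and MSLN in every DMSO library of PC9. Both genes passed the filter on low counts through groups where they were high, so their calls are description only. FOLR1 held at most 3.1 counts per DMSO library in PC9 and 9.6 in H1975, so its fold changes there rest on few counts. Both comparisons use the same DMSO libraries.

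In persisters the called changes of NECTIN4 had opposite signs, 2.36 on the log2 scale in PC9 against -4.80 in H1975 and -2.43 in HCC2935, and those of CEACAM1 did too, 1.58 in HCC827 against -1.55 in H1975 and -1.52 in HCC2935. In acute cells CEACAM6 was lower in PC9 (-1.86) and higher in HCC2935 (0.38). No group had more than 3 samples, so single samples far from their group were not tested.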

How the results depend on the processing

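Of 143 results with a test, 57 were called, and 43 of these stayed called under every alternative and with each library left out. Of the 86 not called, 68 stayed so. Single results lost and gained a call 0 and 7 times under DESeq2, 0 and 1 under RLE factors, 0 and 2 without the filter, 5 and 6 under limma, 4 and 2 under the replicate block, 5 and 9 in the fit of 15 libraries, and 48 and 16 with a library left out.

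None of the 57 called results changed direction. Of those not called, 33 changed sign with at least 1 library left out, and their log2 fold changes then ranged as follows. For acute cells against DMSO the range was -1.18 to 0.12 for CEACAM1 in PC9, -0.39 to 0.15 for CEACAM5 in PC9, -0.13 to 1.35 for CEACAM5 in HCC827, -0.36 to 1.00 for MSLN in HCC827, -0.67 to 0.020 for CEACAM1 in HCC2935 and -0.086 to 1.13 for CEACAM7 in HCC2935. For short washout against persisters the range was -0.77 to 0.31 for CEACAM1 in PC9, -0.42 to 0.050 for CEACAM5 in PC9, -0.10 to 0.45 for CEACAM6 in HCC827, -0.19 to 0.27 for FOLR1 in HCC827, -1.09 to 0.15 for NECTIN4 in HCC827, -0.51 to 0.14 for CEACAM1 in H1975, -0.60 to 0.52 for MSLN in H1975, -0.24 to 0.53 for NECTIN4 in H1975 and -0.10 to 0.16 for MSLN in HCC2935. For long washout against persisters the range was -0.20 to 0.19 for CEACAM6 in PC9, -0.13 to 0.56 for CEACAM1 in HCC827, -0.030 to 1.03 for NECTIN4 in HCC827, -0.34 to 0.50 for CEACAM1 in H1975, -0.83 to 0.26 for CEACAM7 in H1975 and -1.24 to 0.14 for CEACAM7 in HCC2935. For long washout against DMSO the range was -0.083 to 0.78 for CEACAM1 in PC9, -0.20 to 0.44 for NECTIN4 in HCC827, -1.42 to 0.35 for CEACAM7 in HCC2935 and -0.65 to 0.17 for FOLR1 in HCC2935. For persisters against DMSO the range was -0.30 to 0.80 for CEACAM5 in HCC827, -0.82 to 0.15 for NECTIN4 in HCC827, -0.62 to 0.66 for CEACAM7 in HCC2935 and -0.077 to 0.093 for MSLN in HCC2935. For persisters against acute osimertinib the range was -0.17 to 0.24 for CEACAM1 in HCC827, -1.12 to 0.33 for CEACAM5 in HCC827, -0.33 to 0.41 for CEACAM5 in H1975 and -0.30 to 0.64 for FOLR1 in H1975. Sign changes under other alternatives were MSLN in HCC2935 persisters against DMSO (0.013 with RLE factors, 0.023 in the fit of 15 libraries, 0.0043 with DESeq2, 0.17 with limma), MSLN in H1975 short washout against persisters (-0.021 with the replicate block, -0.012 with limma), CEACAM6 in PC9 long washout against persisters (-0.080 with limma) and CEACAM7 in HCC2935 persisters against DMSO (0.11 with limma). None of these values was called.

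For the short washout against persisters, 1 antigen gene was called over the 4 lines. The number was 2 with RLE factors, without the filter or with DESeq2, 0 with the replicate block or the fit of 15 libraries, and 0 to 2 with a library left out. For the long washout against persisters 1 was called, against 2 without the filter or with the replicate block, 5 with the fit of 15 libraries or DESeq2, and 0 to 4 with a library left out. The difference between lines in the acute response was called for 5 genes, and for 3 with limma. The cause was not tested.

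The replicate block changed no antigen call in the 3 paired comparisons. Elsewhere the numbers do not pair the samples (r of deviations from -0.626 to 0.237), and there the block lost 4 calls and gained 2. Among all genes, counts of calls moved by over 1.5 times in the washout comparisons only. Short washout against persisters gave 3221 calls in PC9 (2023 with the block, 880 with the fit of 15 libraries), 503 in HCC2935 (244 with the block, 1162 with DESeq2), 0 in H1975 (1697 with the block, 9 with the fit of 15 libraries, 400 with DESeq2) and 0 in HCC827 (2 with the block, 1 with DESeq2). Long washout against persisters gave 2496 in PC9 (5532 with the fit of 15 libraries, 4211 with DESeq2), 745 in HCC2935 (38 with the block, 1758 with the fit of 15 libraries, 1697 with DESeq2), 2 in H1975 (1 with the fit of 15 libraries, 73 with DESeq2, 0 with limma) and 0 in HCC827 (7 with DESeq2). Long washout against DMSO gave 4278 in PC9 (6672 with the fit of 15 libraries). Genes with few counts limit what can be seen: CEACAM7 outside HCC2935 and CEACAM6 in H1975 were seldom tested.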
